A study of Mus musculus with 4 samples.

Results

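Tandem 3′ splice sites are pairs of acceptors that lie only a few bases apart at the start of 1 exon, so that splicing to one or to the other adds or removes a short segment. The deposited tables list exon trios, sets of 3 neighboring exonic parts whose middle part can be included or skipped, and 5602 of 228333 trios are alternative 3′ splice sites, in which the middle part is the segment between the 2 acceptors. Of these, 2440 trios with 2136 distinct segments had a segment of 3 to 12 nt. A segment was kept where both libraries of a stage held at least 20 junction reads, and where several trios shared a segment, the trio with the most reads over the 4 libraries stood for it. This gave 1519 tandem sites in 1322 named genes, of which 1401 could be compared at E18, 1476 at P1 and 1358 at both stages. Segments of 3 nt made up 867 of the 1519, and are described apart from the 652 of 4 to 12 nt.

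The 3′ splice site of an intron ends in an AG dinucleotide, which U2AF and the second catalytic step of splicing select downstream of a branch point and a pyrimidine tract. Where a further AG follows closely, the spliceosome can join the upstream exon to either one. Acceptors separated by a single NAG triplet (N is any base) are called NAGNAG sites, and both of their products usually keep the reading frame. PTBP2 is an RNA binding protein of the nervous system that binds pyrimidine-rich sequences near 3′ splice sites, and it is the protein removed in the mutant brains.

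The series holds 4 RNAseq libraries, 1 for each group, from mice described as having a Mixed C56Bl/6:129S2 background. At E18 (embryonic day 18) whole brain was taken from NesKO embryos, in which Cre under the nestin promoter deletes the floxed exon 4 of *Ptbp2* in neural progenitors and their descendants, and from wild-type embryos, with RNA of 2 brains in each library. At P1 (postnatal day 1) cortex was taken from 1 EmxKO animal, in which Emx1-Cre acts in the projection neurons of the forebrain and leaves *Ptbp2* intact in other cells, and from 1 wild-type animal. The labels describe the E18 libraries as not strand specific and the P1 libraries as strand specific, so stage, tissue, Cre line and protocol differ together and cannot be told apart. With 1 library a group, every test below compares 2 libraries and not the genotypes, and intervals cover counting error only. *Ptbp2* exon 4 was skipped in 100% of its junction reads in the NesKO, 0.225% in the E18 wild type, 82.6% in the EmxKO and 31.5% in the P1 wild type. The P1 library labelled wild type thus also held *Ptbp2* transcripts without exon 4, which bears on every P1 comparison below, and it is called the P1 wild type as labelled. The libraries listed 54627510 to 91038628 reads on distinct junctions, taking the highest listing of each. All 6 neuronal marker genes examined had reads in every library, whereas 4 non-neural genes summed to 269 and 274 in the 2 E18 libraries against 7.14 and 10.8 at P1 (junction reads scaled to a common library total), with *Col1a1* giving most of the E18 sums, and 5 midbrain and hindbrain genes summed to 44.4 and 49.1 against 0.773 and 0.78. The 6 neuronal genes summed to 1677 in the NesKO against 1963 in the E18 wild type, and to 2685 against 2762 at P1. In the same order, *Snap25* had 79.9 against 169 at E18 and 58.9 against 116 at P1. *Map2* had 241 against 340 and then 337 against 581. *Stmn2* at E18 and *Tubb3* and *Rbfox3* at P1 were higher in the knockout. The part of these cells, or of these differences between libraries, in any result below was not tested.

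The ratio reported for a tandem site is the deposited SpliceTrap inclusion ratio, the percentage of transcripts estimated to use the upstream acceptor and so to contain the segment. The junction reads behind it are those from the upstream exon to the upstream acceptor and those to the downstream acceptor. The reads listed on the boundary between the segment and the rest of its exon made up 0.607% to 0.938% of the junction reads of the tandem sites, so these were left out of the tests. The deposited ratio lay at a median of 0.281 to 0.295 points from the plain share of junction reads on the upstream acceptor, and 10 to 12 sites in each library lay more than 10 points from it. The median tandem site had 161 and 171 junction reads in the NesKO and wild type at E18, and 282 and 306 in the EmxKO and wild type at P1. At those medians the smallest share that could be seen, 3 reads of the total, was 1.86% and 1.75% at E18 and 1.07% and 0.98% at P1.

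The exon start of 1355 of the 1519 sites could be read from GENCODE M21 transcripts (GRCm38) that use the upstream acceptor, matched to the trios by exon and intron lengths, and 1333 of these segments (98.4%) ended in AG. The sites that carry the results are printed here 5′ to 3′ on the transcript strand, with the segment between the acceptors in capitals between the last 9 bases of the upstream exon and the first 9 bases after the downstream acceptor. *Dbn1*, *Ncam1* and *Rbm3* are shown as deeply sequenced 3 nt sites at which both acceptors were in use in all 4 libraries, and the others as the sites named in the comparisons.
Dbn1, 3 nt: gggacccagCAGgccagcgaa
Ncam1, 3 nt: tacagagcgAAGctcgcctct
Rbm3, 3 nt: cagtggcagAAGccagggtgg
Adgrb2, 3 nt: gactttgagAAGgtgatgcac
Magi1, 3 nt: ccaaagtcgCAGccactggag
Nckap1, 6 nt: aacaacaatCAACAGctggcacag
Psap, 6 nt: atgcacatgCTTCAGcaacccaag
Cyld, 9 nt: tcatcccagCTGTTTCAGatagcgtga
Hcfc1r1, 12 nt: aaacgccagTCTTTCCCCCAGggaaccttt
Pde2a, 12 nt: aggagatttCCCGACTTCCAGcttcacaga
Celf1, 12 nt: tacttagcaCTTTATTTGCAGctcctacag
Pcbp2, 12 nt: atgttggagACTCTCTCCCAGtcccccccg
Tent2, 12 nt: gaagaaccaTGTTTTTTCCAGgtaaatcag

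The use of the 2 acceptors differed by the length of the segment. At 3 nt both acceptors were used at most sites, with median ratios of 72.5 and 74.4 in the NesKO and wild type at E18 and 74.4 in both P1 libraries. The ratio of 3 nt sites lay between 10 and 90 at 65.8% to 66.8% of them in each library, above 90 at 28.0% to 28.9% and below 10 at 4.27% to 5.82%. At 4 nt the upstream acceptor was used almost alone, with medians of 98.0 to 98.4 and 17.2% to 20.6% of the sites between 10 and 90. Segments of 5 nt had medians of 96.7 to 97.2 and segments of 6 nt medians of 96.6 to 97.6. At 9 nt the medians were 64.8 to 68.8, and at 12 nt, where the median site used mostly the downstream acceptor, they were 32.9 and 37.9 at E18 and 44.0 and 47.0 at P1. Sites of 7, 8, 10 and 11 nt numbered 17 to 29 at each length and stage, and their quartiles spanned a wide range. Alternative 3′ splice sites of over 12 nt had medians of 74.1 to 75.1, and those of 13 nt, just outside the limit, had medians of 34.2 to 39.4 over 32 sites at E18 and 34 at P1. In the smaller library of the stage, 32 sites at E18 had 20 to 22 reads, with a median size of the difference of 8.75 points, and 37 sites just under the limit, with 17 to 19 reads, had one of 7.4 points. The corresponding medians at P1 were 3.3 points over 29 sites and 4.5 points over 29 sites.

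**Figure D1:**
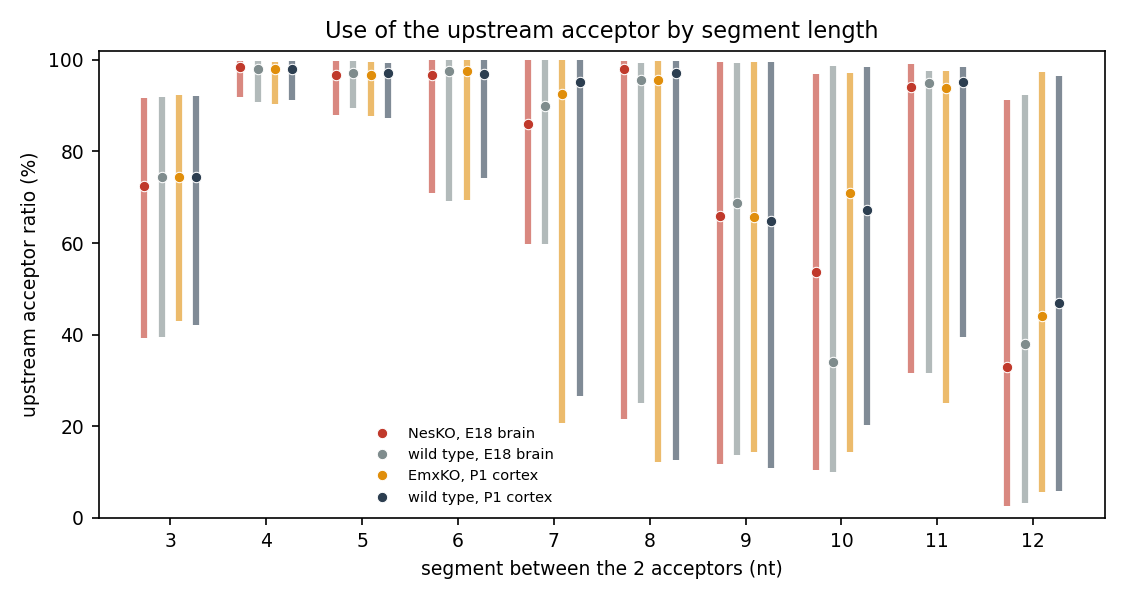
Median (points) and quartiles (bars) of the deposited upstream acceptor ratio, in percent, for each segment length in nt and each of the 4 libraries. The medians of 3 nt sites lie between 72.5 and 74.4 in all 4 libraries, those of 4, 5 and 6 nt sites at 96.6 or above, and those of 12 nt sites at 47.0 or below.

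Among 3 nt sites the first base of the segment went with the ratio. Of 797 3 nt segments whose sequence could be read, 526 were CAG, 150 AAG, 75 TAG, 33 GAG and 13 other triplets. Sites with a CAG segment had medians of 66.1 to 68.0 over 490 sites at E18 and 516 at P1, and 78.8% to 79.8% of them lay between 10 and 90. Sites with TAG had medians of 75.5 to 80.2 over 72 and 73 sites. Sites with AAG had higher medians, 93.0 to 93.9, and 40.4% to 41.7% of them between 10 and 90. Sites with GAG had a median of 99.9 in all 4 libraries, with 4 or 5 of 31 or 32 sites between 10 and 90. These ratios are a description across sites, and the sequence around the upstream AG, which lies in the intron, was not analysed here. Pyrimidine motifs of the kind PTB proteins bind were also sought on the transcript strand in the longer segments, with no correction for their overlap: TTCT was in 0 of 43 segments of 9 nt and 6 of 50 (12%) of 12 nt, TCTT in 4 (9.3%) and 8 (16%), and CTCTCT in 0 and 2 (4%). *Hcfc1r1* and *Pcbp2* hold TCTT and CTCTCT in the segments printed above.

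Most tandem sites lay in coding sequence. At E18 692 of 807 3 nt sites (85.7%) were coding, 87 were in 5′ UTRs, 8 in 3′ UTRs and 16 in transcripts without a coding sequence. The median ratio in the E18 wild type was 76.2 for the coding 3 nt sites and 64.0 for those in 5′ UTRs. Of the segments whose length is not a multiple of 3, 290 of 382 were coding, with a median of 98.5 and 55 sites (19%) between 10 and 90, and 67 were in 5′ UTRs, with a median of 89.6 and 31 sites (46.3%) between 10 and 90. Coding segments of 6, 9 or 12 nt had a median of 80.3, and 68 of 181 (37.6%) lay between 10 and 90. Where in the codon the 3 nt segment began went with little difference, with medians of 76.0 over 266 sites at a codon boundary, 77.8 over 300 sites after the first base and 74.7 over 126 sites after the second. Both acceptors were annotated at 956 of the 1519 sites, the upstream one alone at 399 and the downstream one alone at 134. At 99 sites a gene lies on the other strand, and the E18 libraries are not strand specific. Whether reads of that gene entered any ratio was not tested.

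At most sites the ratio in the 4 libraries lay within a few points. Over the 784 3 nt sites compared at both stages, the range between the lowest and the highest library had a median of 5.4 points, was at most 5 points at 366 sites and at least 20 points at 31. Over the 574 sites of 4 to 12 nt the median range was 2.5 points, with 393 sites at most 5 points and 23 at least 20. The upstream acceptor was the major one in all 4 libraries at 945 of 1358 sites and the minor one in all 4 at 327, and at 83 the ratio crossed 50. In 291 of the 784 3 nt sites the ratio stayed between 20 and 80 in every library, and 5 of the 6 of these with the most reads are described in full.

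*Gnb1*, a G protein beta subunit, has its site in the 3′ UTR at chr4:154931577-154931579 (mm9, + strand), where the ratio was 20.5, 21.8, 22.6 and 21.6 in the NesKO, E18 wild type, EmxKO and P1 wild type. *Dbn1*, which encodes the actin-binding protein drebrin, has its site at exon 13 of 14, chr13:55575920-55575922 (− strand), with ratios of 27.9, 28.3, 29.9 and 30.1 in the same order. *Ncam1*, a neural cell adhesion molecule, used the upstream acceptor of its site at chr9:49328318-49328320 (− strand, exon 15 of 18) at 23.2, 22.7, 20.5 and 20.5. These 3 sites used mainly the downstream acceptor, and their libraries lay within 2.7 points of each other.

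*Rbm3*, a cold-inducible RNA binding protein, has its site at chrX:7720456-7720458 (− strand, exon 6 of 7), with ratios of 46.7 and 46.4 at E18 and 40.4 and 39.6 at P1. *Prmt2*, an arginine methyltransferase, has a site in the 5′ UTR at chr10:75699567-75699569 (− strand), with ratios of 27.3 and 26.8 at E18 and 31.0 and 30.6 at P1. In both genes the 2 libraries of a stage lay close together and the stages did not overlap. The knockout differences of the 5 genes ran from −1.3 to 1.0 points, with every 95% interval of the difference between −3.65 and 3.56 points, and none passed Fisher's exact test (adjusted p = 1 for each).

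To ask which tandem sites differ when PTBP2 is lost, the NesKO was first compared with the wild type at E18. Over the 1401 sites the difference of the ratio had a median of 0 and a median size of 1.7 points. It reached 10 points at 99 sites (7.07%), against 2.21% of all middle segments, most of which are constitutive, 9.55% of alternative 3′ splice sites over 12 nt and 10.9% of cassette exons. It was higher in the NesKO at 44 (3.14%, against 1.27% of all middle segments) and lower at 55 (3.93%, against 0.937%). The share was 79 of 807 (9.79%) at 3 nt and 20 of 594 (3.37%) at 4 to 12 nt. The 79 sites of 3 nt had a median of 45 reads in the smaller library against 144 over all 3 nt sites, and of the 496 3 nt sites with at least 100 reads in both libraries 11 reached 10 points.

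Fisher's exact test (two-sided) compared the reads on the upstream and the downstream acceptor between the 2 libraries, with Benjamini-Hochberg adjustment over all 133700 middle segments tested. With a difference of 10 points and an adjusted p below 0.05, 4 of the 1401 tandem sites were called (0.286%, against 0.162% of all middle segments, 0.614% of alternative 3′ splice sites over 12 nt and 1.94% of cassette exons), all of them among sites of 6 to 12 nt. None of the 807 3 nt sites was called by this exact test, with 45 of them (5.58%) at an unadjusted p below 0.05, against 1.66% of all middle segments. The corresponding share was 10.2% for alternative 3′ splice sites over 12 nt and 11.8% for cassette exons. Where the reads on the segment boundary were averaged with those on the upstream acceptor, as the test was first laid out, 1 tandem site was called. The 95% interval of the difference lay wholly within 10 points of 0 at 368 of 807 3 nt sites (45.6%) and at 376 of 594 sites of 4 to 12 nt (63.3%). At the others the interval reached past 10 points in at least 1 direction.

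*Hcfc1r1*, whose product binds the host cell factor HCF-1, had the largest of the called differences. Its 12 nt segment begins exon 3 of 4 in coding sequence, chr17:23811502-23811513 (mm9, + strand). The upstream acceptor had 5 reads and the downstream acceptor 1294 in the NesKO, against 343 and 478 in the E18 wild type, 2386 and 55 in the EmxKO and 1754 and 36 in the P1 wild type. The ratio was thus 0.4 in the NesKO, 40.9 in the E18 wild type, 97.4 in the EmxKO and 97.7 in the P1 wild type, so the E18 libraries lay apart while the intervals of the P1 libraries overlapped. It fell by 40.5 points in the NesKO (95% interval of the difference in read share, −44.8 to −38.0; Fisher's exact test, adjusted p = 1.6e-151). *Hcfc1r1* has 2 processed copies in the annotation, as do *Gnb1* and *Mark1*, and *Rbm3* and *Tyms* have 1 each. How reads were shared with such copies was not tested at any site.

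*Erc2* encodes a scaffold protein of the presynaptic active zone, and its 10 nt segment lies at exon 12 of 16, chr14:28893308-28893317 (+ strand), with only the downstream acceptor annotated. The ratio was 63.4 in the NesKO, from 28 upstream and 17 downstream reads, and 30.6 in the E18 wild type, from 29 and 89. It rose by 32.8 points (interval, 20.8 to 52.1; exact test, adjusted p = 0.00776), and was 77.2 in the EmxKO and 67.2 in the P1 wild type. The boundary of the *Erc2* segment carried 8 and 15 reads in the NesKO and wild type at E18, and 38 and 52 in the EmxKO and wild type at P1. *Gramd1b*, a cholesterol transfer protein of the endoplasmic reticulum, has a 12 nt segment at exon 18 of 20, chr9:40107682-40107693 (− strand). Its ratio was 14.3 in the NesKO, from 31 upstream and 169 downstream reads, against 3.3 in the E18 wild type, from 14 and 380 (interval of the difference, 7.0 to 17.8; exact test, adjusted p = 0.000469). Both genes had more of the longer form in the NesKO, and both lost the call when the boundary reads entered the exact test, with adjusted p = 0.151 for *Erc2* and 0.105 for *Gramd1b*.

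*Nckap1*, a subunit of the WAVE complex that drives actin assembly, has a 6 nt segment at exon 3 of 31, chr2:80394942-80394947 (− strand). The ratio was 77.6 in the NesKO, from 115 upstream and 33 downstream reads, and 92.1 in the E18 wild type, from 182 and 15. It fell by 14.5 points (interval, −22.6 to −7.2; exact test, adjusted p = 0.0493, and 0.092 with the boundary reads). At P1 the order was the opposite, with 89.3 in the EmxKO against 85.8 in its control. With no minimum size of the difference, 6 tandem sites passed the exact test (0.428%, against 0.264% of all middle segments). Among alternative 3′ splice sites over 12 nt that share was 1.4%. *Celf1*, named after its values were seen, an RNA binding protein that regulates splicing and translation, rose at its 12 nt segment from 80.1 to 87.4 in the NesKO (exact test, adjusted p = 0.0171, and 0.0524 with the boundary reads) and had 86.5 in the EmxKO and 84.8 in the P1 wild type.

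The largest difference of a 3 nt site by the deposited ratio, also named after its values were seen, was not found in its junction reads. *Ywhaq*, a 14-3-3 protein gene with the site in its 5′ UTR, had ratios of 25.3 in the NesKO and 67.7 in the E18 wild type, yet 78 of 78 and 215 of 215 reads lay on the upstream acceptor (exact test, adjusted p = 1). Of the 99 sites with a difference of 10 points, 89 had one of at least that size in the same direction by the share of junction reads, and 28 had an unadjusted p below 0.05. At P1 67 of 78 did, and 26 had an unadjusted p below 0.05.

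At P1 the EmxKO was compared with the wild type in cortex. Over 1476 sites the median size of the difference was 1.4 points, and 78 sites (5.28%) differed by 10 points or more, against 1.46% of all middle segments, 5.9% of alternative 3′ splice sites over 12 nt and 9.42% of cassette exons. The ratio was higher in the EmxKO at 42 (2.85%, against 0.904% of all middle segments) and lower at 36 (2.44%, against 0.558%). The 3 nt sites gave 54 of 844 (6.4%) and those of 4 to 12 nt 24 of 632 (3.8%). The 54 had a median of 42 reads in the smaller library against 255 over all 3 nt sites. By Fisher's exact test with the same limits 4 sites were called (0.271%, against 0.208% of all middle segments and 0.596% of alternative 3′ splice sites over 12 nt), and 3 with the boundary reads. No 3 nt site passed the exact test at an adjusted p below 0.05, with 55 of 844 (6.52%) at an unadjusted p below 0.05, against 2.59% of all middle segments. The corresponding share was 10.6% for alternative 3′ splice sites over 12 nt and 16% for cassette exons. The interval of the difference lay within 10 points of 0 at 510 of 844 3 nt sites (60.4%). Whether the share of sites differed between E18 and P1 was not tested, and the P1 libraries held more reads.

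**Figure D2:**
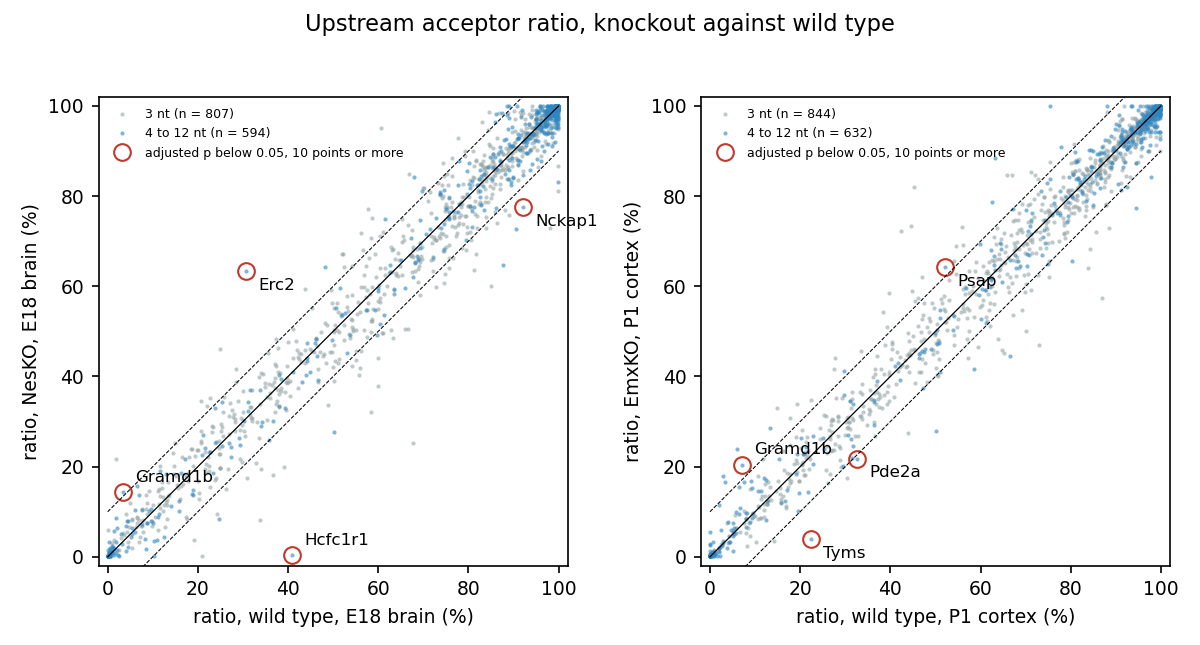
Deposited upstream acceptor ratio, in percent, of each tandem site in the wild type (horizontal) and the knockout (vertical) at E18 (left, 807 sites of 3 nt and 594 of 4 to 12 nt) and P1 (right, 844 and 632), with dashed lines at 10 points and circles on the 4 sites called at each stage. Hcfc1r1 lies at 0.4 in the NesKO against 40.9 in the wild type, far below the line, and most sites lie within the dashed lines.

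*Gramd1b* was called at P1 as well, with a ratio of 20.4 in the EmxKO, from 100 upstream and 362 downstream reads, and 7.0 in the P1 wild type, from 55 and 695 (interval, 10.2 to 18.6; exact test, adjusted p = 1.7e-09, and 0.000152 with the boundary reads). It rose by 13.4 points, next to 11 at E18, and it was the only tandem site called in both knockouts. *Psap*, which encodes prosaposin, the precursor of lysosomal saposins, has a 6 nt segment at exon 8 of 14, chr10:59761840-59761845 (+ strand). The ratio was 64.2 in the EmxKO, from 926 upstream and 468 downstream reads, and 52.2 in the P1 wild type, from 797 and 674, and it rose by 12.0 points (interval, 8.7 to 15.8; exact test, adjusted p = 2.2e-08). The 2 E18 libraries of *Psap* had 43.4 and 44.2 and did not differ by more than counting error (interval, −4.9 to 4.9). The boundary of the *Psap* segment carried 62 to 117 reads in each library, more than at most sites.

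*Pde2a*, a phosphodiesterase that hydrolyzes cyclic nucleotides, has a 12 nt segment at exon 14 of 31, chr7:108651801-108651812 (+ strand). Its ratio was 21.8 in the EmxKO, from 273 upstream and 996 downstream reads, and 32.5 in the P1 wild type, from 344 and 692. It fell by 10.7 points (interval, −15.3 to −8.0; exact test, adjusted p = 3.1e-07), and at E18 it was 13.8 in the NesKO against 19 in the control. *Tyms*, the gene of thymidylate synthase, has a 10 nt segment in its 3′ UTR at chr5:30388580-30388589 (− strand). The ratio fell from 22.4 in the P1 wild type, with 22 upstream and 70 downstream reads, to 4.0 in the EmxKO, with 4 and 84 (interval, −29.4 to −9.4; exact test, adjusted p = 0.0445, and 0.469 with the boundary reads). At E18 *Tyms* had 13.7 in the NesKO against 7.0 in the control, and the interval of the difference, −0.43 to 16, held 0. *Lrp11*, a member of the low-density lipoprotein receptor family named after its values were seen, was the fifth site of any size to pass the exact test (5 of 1476, 0.339%, against 0.495% of all middle segments), with 989 upstream and 0 downstream reads in the EmxKO against 723 and 10 in the P1 wild type, ratios of 99.9 and 98.6 (adjusted p = 0.0399).

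**Figure D3:**
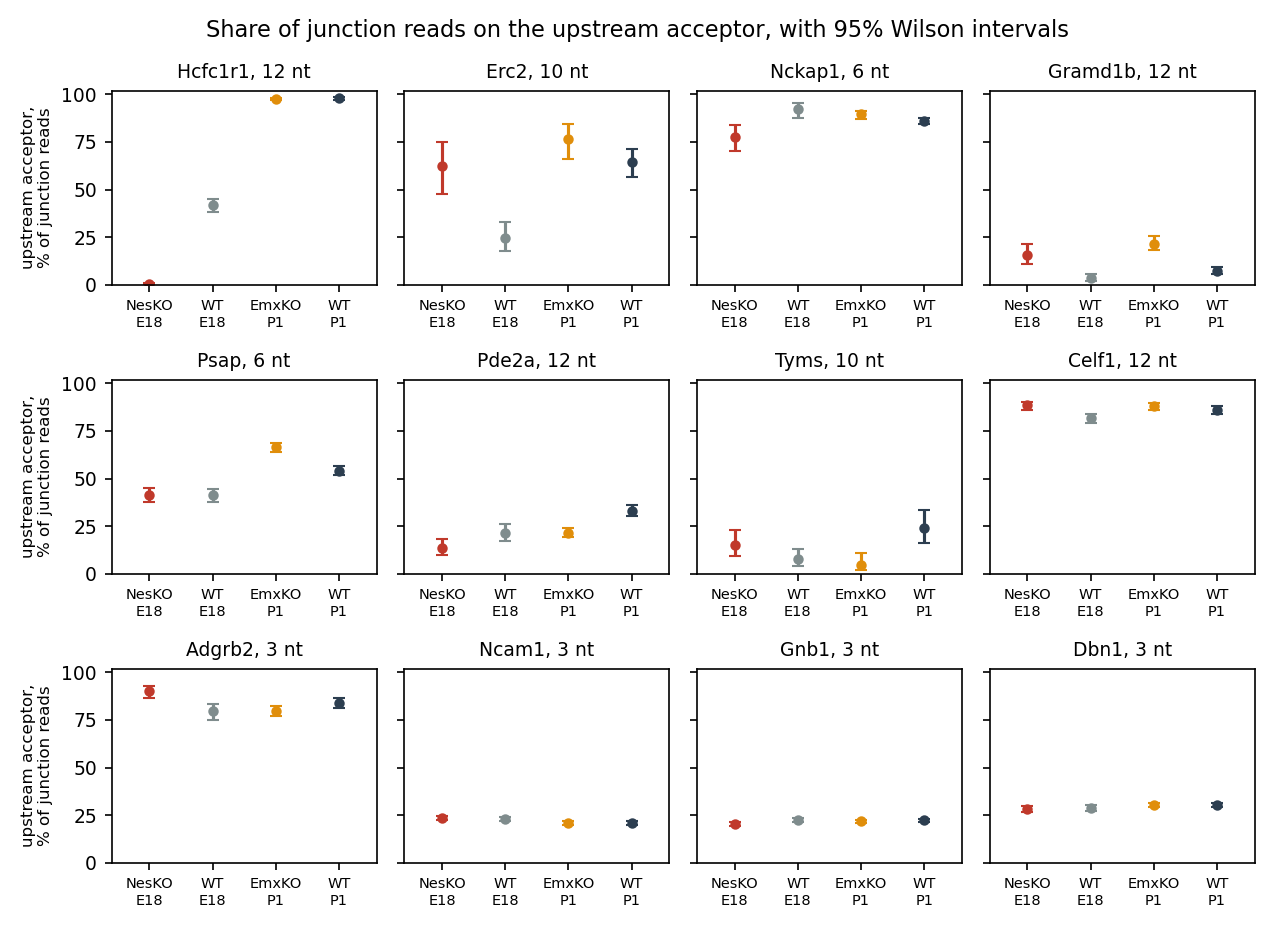
Share of junction reads on the upstream acceptor, in percent, at 12 named tandem sites in the 4 libraries, with 95% Wilson intervals as bars. Hcfc1r1 is at the bottom in the NesKO and at the top in both P1 libraries, while the 3 nt sites of Ncam1, Gnb1 and Dbn1 differ little between knockout and wild type.

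The 2 knockout comparisons share no library. Of 1358 sites tested at both stages, 10 (0.736%) reached 10 points with the same sign in both and 8 (0.589%) with opposite signs, against 0.301% and 0.103% of all middle segments and 0.883% and 0.353% of alternative 3′ splice sites over 12 nt. By a Wald test of the difference between the log odds ratios, the knockout difference itself was not the same at both stages at 3 sites, *Hcfc1r1*, *Nckap1* and *Adgrb2*. These were 0.221% of the tandem sites, against 0.0842% of all middle segments and 0.471% of alternative 3′ splice sites over 12 nt. The 10 were *Gramd1b*, *Erc2*, *Cyld*, *Dna2*, *Cox18*, *Gnas*, *Brdt*, *Bdp1*, *Rad51ap1* and *Tent2*, 5 of them with 3 nt segments. The *Cyld* site had 29 and 34 reads on its acceptors at E18 and 142 and 201 at P1. Only *Gramd1b* was called by the exact test at both stages. *Cyld*, a deubiquitinase, had 64.2 and 48.3 in the NesKO and wild type at E18 and 78.7 and 62.6 in the EmxKO and wild type at P1 at its 9 nt site, so both knockouts lay higher (adjusted p = 1 and 0.187, exact test). *Tent2*, a poly(A) polymerase, had 64.7 and 87.7 at E18 and 64.9 and 75 at P1, with both knockouts lower. *Dna2*, a nuclease and helicase of DNA replication, had 83.1 and 99.9 at E18 and 84.3 and 97.9 at P1, from 21 to 34 reads on its 2 acceptors in each library. *Cox18*, which acts in cytochrome oxidase assembly, had 41.8 and 56.0 at E18 and 44.0 and 57.3 at P1. For *Tent2*, *Dna2* and *Cox18* the exact test gave adjusted p = 1 at both stages.

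*Gnas*, the alpha subunit of the stimulatory G protein, had 70.7 and 58.3 at E18 and 82.1 and 45.2 at P1, the last from 10 upstream and 12 downstream reads. *Brdt*, a bromodomain gene, had 81.9 and 70.0 and then 73.2 and 55.8. *Rad51ap1*, which acts in homologous recombination, had 77.1 and 57.8 and then 57.5 and 46.1. *Bdp1*, a subunit of TFIIIB, had 64.0 and 75.8 and then 59.2 and 71.1. These 4 had 20 to 65 reads on their acceptors in each library, with adjusted p = 1 at E18 and 0.73 to 1 at P1 (exact test). *Erc2*, the last of the 10, had 77.2 and 67.2 at P1, a difference of 10 points that did not pass the exact test there (adjusted p = 1; interval, −0.1 to 23.1).

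**Figure D4:**
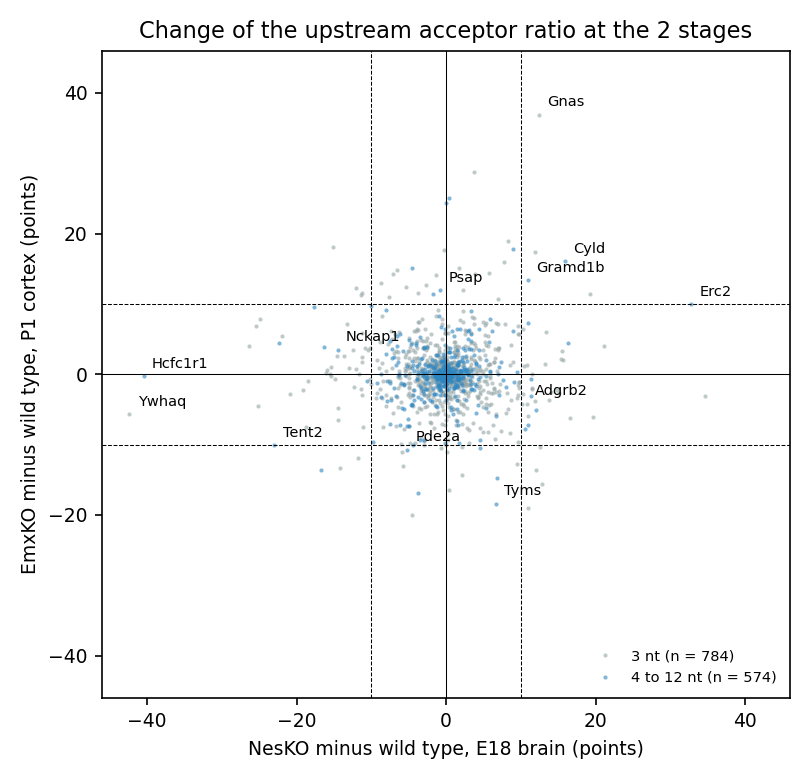
Difference of the deposited ratio, in percentage points, for the NesKO at E18 (horizontal) and the EmxKO at P1 (vertical) over 784 sites of 3 nt and 574 of 4 to 12 nt, with dashed lines at 10 points. Most sites lie inside the central square, and 10 sites lie in the outer corners where both knockouts differ the same way.

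The wild-type libraries of P1 cortex and E18 brain were compared at 1394 sites, and this comparison shares its libraries with both knockout comparisons. The ratio differed by at least 10 points at 138 sites (9.9%), against 4.01% of all middle segments, 18.7% of alternative 3′ splice sites over 12 nt and 20.9% of cassette exons. It was higher at P1 at 85 (6.1%, against 2.1% of all middle segments) and lower at 53 (3.8%, against 1.91%). By Fisher's exact test 26 were called (1.87%, against 0.959% of all middle segments and 6.64% of alternative 3′ splice sites over 12 nt), 11 with 3 nt and 15 with 4 to 12 nt, and 19 were called with the boundary reads. Of any size, 50 passed it (3.59%, against 2.01% of all middle segments), and 197 (14.1%) had an unadjusted p below 0.05, against 5.1%. Among alternative 3′ splice sites over 12 nt these shares were 12.1% and 25.4%. Tissue, stage, protocol and the share of each cell type cannot be told apart here, nor can fewer cells of a type be told from less RNA per cell in bulk samples.

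Among the 3 nt sites with the largest differences, *Magi1*, a scaffold protein of cell junctions, rose from 60.3 to 86.0 between the wild types at chr6:93658212-93658214 (− strand), and had 57.5 in the NesKO and 85.5 in the EmxKO (exact test, adjusted p = 0.00186). Both P1 libraries thus lay above both E18 libraries. *Bag6*, a chaperone of newly made membrane proteins, fell from 59.9 to 25.8, although its NesKO library, at 37.9, lay 22 points under the E18 wild type (exact test, adjusted p = 0.0253 between the wild types and 1 for the NesKO). The upstream share of the *Bag6* reads was 52.8% in the NesKO and 68.9% in the E18 wild type, both above the deposited ratios (interval of the difference, −35.7 to 5.0). *Ralgapa1*, a GTPase activator of Ral proteins, fell from 48.8 to 14.9 at a site in its 3′ UTR (exact test, adjusted p = 0.0224), and *Ccdc151*, which acts in the docking of ciliary dynein, rose from 22.6 to 50.5 (exact test, adjusted p = 0.0336). *Bag6*, *Ralgapa1* and *Ccdc151* had 34 to 113 reads in the wild types and lost the call with the boundary reads, with adjusted p of 0.108 to 0.247.

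**Figure D5:**
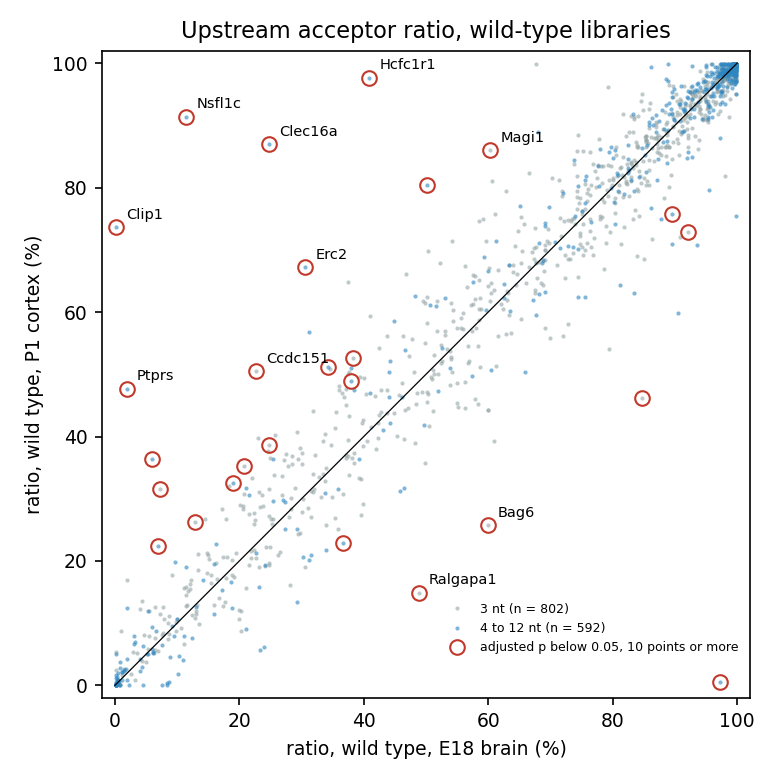
Deposited upstream acceptor ratio, in percent, of 802 sites of 3 nt and 592 of 4 to 12 nt in the wild-type E18 brain (horizontal) and P1 cortex (vertical), with circles on the 26 sites called by Fisher's exact test at 10 points or more. Nsfl1c, Clip1, Clec16a and Ptprs lie near the upper left, and Hcfc1r1 lies at the top, at 40.9 against 97.7. Bag6 lies below the line at 59.9 against 25.8.

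The largest differences at longer segments were larger than these. *Nsfl1c*, a cofactor of the p97 ATPase, has a 6 nt segment at chr2:151328744-151328749 (+ strand), with ratios of 9.5 in the NesKO and 11.4 in the E18 wild type against 92.6 in the EmxKO and 91.4 in the P1 wild type. The 2 E18 libraries of *Nsfl1c* had 1 and 4 upstream reads against 152 and 158 downstream, and the 2 P1 libraries 1082 and 1126 against 84 and 105 (wild types, exact test, adjusted p = 2.8e-126). The upstream share of the *Nsfl1c* reads was 0.654% in the NesKO and 2.47% in the E18 wild type, below the deposited 9.5 and 11.4. The boundary of the *Nsfl1c* segment carried 26 and 32 reads in these libraries, more than the upstream acceptor. *Clip1*, a protein of growing microtubule ends, had 1.5 and 0.1 at E18 and 66.9 and 73.6 at P1 at a 7 nt segment, chr5:124030134-124030140 (− strand), from 25 to 73 reads (exact test, adjusted p = 6.6e-16). *Clec16a*, which acts in mitochondrial quality control, had 8.4 and 24.7 at E18 and 90.9 and 87.0 at P1 at a 6 nt segment, chr16:10573387-10573392 (+ strand) (exact test, adjusted p = 3.7e-18). Its acceptors held 25 and 38 reads at E18 and 499 and 320 at P1. The upstream share of the E18 wild-type reads was 13.2%, below the deposited 24.7. In these 3 genes only the downstream acceptor is annotated, and the E18 and P1 libraries did not overlap. The *Hcfc1r1* ratio rose from 40.9 to 97.7 between the wild types (exact test, adjusted p = 8e-241). A 4 nt segment at chr5:117735827-117735830 (− strand), which matched no gene, had ratios of 98.8 and 97.2 at E18 and 0.7 and 0.6 at P1, while its reads on the 2 acceptors numbered 241 in the E18 and 10059 in the P1 wild type.

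The deeply read 3 nt sites gave small differences between the stages with little error. *Prmt2* rose by 3.8 points from the E18 to the P1 wild type (exact test, adjusted p = 0.00532, and 0.0942 with the boundary reads). *Rbm3* fell by 6.8 points (interval, −9.5 to −4.2; exact test, adjusted p = 6.7e-05). *Gnb1*, *Dbn1* and *Ncam1* differed by −2.2 to 1.8 points and did not pass the exact test.

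Genes of 4 groups, chosen by symbol, were also counted. In RNA binding proteins and splicing factors 60 sites lay in 46 genes, and 0 of 58 at E18 and 0 of 59 at P1 differed by at least 10 points, with 1 passing the exact test at E18 (*Celf1*) and 0 at P1, against 7.07% and 5.28% of the tandem sites. The median size of their difference was 1.6 and 1.1 points, against 1.7 and 1.4 over all tandem sites. *Pcbp2*, an RNA binding protein of poly(C) tracts, had ratios of 41.1, 41.0, 45.7 and 47.0 in the NesKO, E18 wild type, EmxKO and P1 wild type at its 12 nt segment, and the wild types differed by 6.0 points (exact test, adjusted p = 0.000255). Between the wild types 5 of the 58 sites passed the exact test, all with differences under 10 points. Named after their values were seen, these included *Pcbp2*, *Rbm3*, *Rbfox2*, a splicing factor of neurons and muscle, which fell by 7.9 points at a 12 nt segment (exact test, adjusted p = 7.9e-06), and *Srsf10*, an SR protein, which rose by 2.4 points at a 3 nt segment (exact test, adjusted p = 0.00115).

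In synapse and ion channel genes, 1 of 37 sites at E18 and 1 of 38 at P1 reached 10 points, both the *Erc2* site. The shares at E18 and P1 were 7.07% and 5.28% of all tandem sites, and 2.21% and 1.46% of all middle segments. Between the wild types 5 of 37 sites reached 10 points, 4 higher and 1 lower at P1, against 9.9% of the tandem sites. The exact test called 3 of the 37, against 1.87% of the tandem sites and 0.959% of all middle segments. These were *Erc2*, *Magi1* and *Ppfia1*, a liprin of the synapse named after its values were seen, which was 24.4 points higher at P1 (exact test, adjusted p = 0.0324). *Cacnb3*, a calcium channel beta subunit, had 93.0, 92.7, 91.0 and 89.6 at a GAG segment, and *Epb41l1*, a cytoskeletal adaptor of glutamate receptors, 88.5, 90.6, 87.3 and 89.1. Neither passed the exact test in the knockouts.

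In cytoskeleton and motor genes, 0 sites passed the exact test at either stage. At E18 1 of 43 sites and at P1 0 of 43 reached 10 points, against 7.07% and 5.28% of all tandem sites. The 1 site was a 6 nt segment of *Ablim1*, an actin-binding LIM protein, at 16.3 points higher in the NesKO (exact test, adjusted p = 1). *Add2*, the beta subunit of adducin, had 87.6, 87.2, 89.1 and 88.2, and *Mark1*, a kinase of microtubule-associated proteins, had 22.2, 22.3, 23 and 25.9. In chromatin and transcription genes, 6 of 100 sites at E18 (4 higher, 2 lower) and 6 of 104 at P1 (3 and 3) reached 10 points, near the 7.07% and 5.28% of all tandem sites, and 0 passed the exact test. At E18 these ran from *Phf21a*, at −14.9 points, to *Baz2a*, at 21.1, and at P1 from *Zfp68*, at −14.7, to *Baz2b*, at 25.1 (exact test, adjusted p = 0.293). *Smarca4*, the ATPase of the BAF chromatin remodeler, had 2 of the deepest sites of this group, neither of which reached 10 points in a knockout. Its 9 nt site had 44.1, 44.2, 39.2 and 42.2 and its 3 nt site 71.1, 73.5, 71.5 and 74.9 in the same order of libraries. *Tcf25* had 48.5 in the NesKO and 53.8 in the E18 wild type, a difference of −5.3 points that missed the threshold of the exact test (interval, −8.6 to −2.6; adjusted p = 0.089), and 53.6 and 53.8 at P1. Between the wild types 1 of 42 cytoskeleton sites (*Clip1*) and 1 of the chromatin and transcription sites were called, against 1.87% of the tandem sites, the latter at 3 nt in *Tcf3*, an E protein transcription factor, which fell by 19.3 points (exact test, adjusted p = 3.5e-08).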

How the data were processed

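RNAseq libraries (TruSeq, paired reads of 100 nt) were analysed from 1 table per library. Per the submitters' processing notes, CASAVA, TopHat and Cufflinks were used with build mm9, and the methods name SpliceTrap for splicing. The deposited ratios are fractions that the authors estimated with SpliceTrap, taken after its correction and printed as percentages. The deposited junction reads are counts that the authors did not normalize. The members, gene lists and named-gene rule were chosen with earlier results of these data known. Named sites were those called in a knockout, the 10 differing alike in both, the 5 largest wild-type differences in each length class, the 6 deepest intermediate 3 nt sites and the 3 deepest in each gene list.

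Fisher's exact test and a Wald test of the difference of log odds ratios (0.5 added to each count) were run in scipy 1.17.1 (Python 3.11.15) over 1 trio per middle segment and tested on simulated data. The test was laid out on the mean of both inclusion junctions. The second of these is contiguous in tandem sites and held under 1% of the reads, so the upstream acceptor junction alone was used, and both values are given. Intervals are Wilson's and Newcombe's at 95%. PTB motifs in the introns upstream of the acceptors were not analysed here. A printed site was taken from a transcript of matching lengths in another build (GRCm38, GENCODE M21). Some sites that the rule names are not reported here.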

Additional observations from a re-analysis of the deposited data

Results flagged for a closer look

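At 3 tandem sites the knockout difference was not the same at the 2 stages, by the Wald test adjusted over all middle segments tested at both stages. An exact conditional test of equal odds ratios, added after seeing the data, called the same 3. At the 12 nt site of *Hcfc1r1* the NesKO differed by −40.5 points at E18 and the EmxKO by −0.3 points at P1 (Wald test, adjusted p = 1.38e-20, and exact test, adjusted p = 1.39e-34). At the 6 nt site of *Nckap1* the differences were −14.5 points at E18 and 3.5 points at P1 (Wald test, adjusted p = 0.0223, and exact test, adjusted p = 0.0187). At the 3 nt site of *Adgrb2*, an adhesion G protein-coupled receptor named after its values were seen, chr4:129698807-129698809 (mm9, + strand), the ratio was 90 in the NesKO and 79.2 in the E18 wild type, from 322 and 348 reads, and 79.4 in the EmxKO and 83.6 in the P1 wild type, from 866 and 686. Its differences were 10.8 and −4.2 points (Wald test, adjusted p = 0.0307, and exact test, adjusted p = 0.0234), and the one at E18 alone did not pass Fisher's exact test (adjusted p = 0.061). With the boundary reads averaged into the Wald test, the adjusted p was 1.47e-12 for *Hcfc1r1*, 0.0495 for *Nckap1* and 0.0843 for *Adgrb2*, which lost the call. Stage, tissue, Cre line and library protocol differ together between these comparisons and cannot be told apart.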

How the results depend on the processing

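No paired analysis was possible because each group has 1 library. With at least 50 junction reads, 42 sites at E18, 34 at P1, 89 between the wild types and 3 alike in both knockouts reached 10 points. With at least 100, a limit chosen after seeing the data, these were 15, 18, 43 and 1, the exact test called 17 between the wild types, and 4 sites differed between the stages by the Wald test. A cutoff of 20 points left 13, 10, 26 and 0. Averaging the boundary reads into the exact test left 1 site at E18, and averaging them into the ratio moved the 3 nt medians to 57.6, 60.0, 60.1 and 60.0 in the NesKO, E18 wild type, EmxKO and P1 wild type, since the boundary reads are nearly absent. Adjustment over alternative 3′ splice sites alone gave 6 sites by the Wald test. Of 418 alternative values for named sites, 405 kept their direction and their side of the adjusted p threshold. That threshold was lost by 12 and gained by 1 (*Adgrb2* at E18), and 0 changed direction. The limit of 10 points did not enter this count, and settings that changed only the ratio kept the main adjusted p. With the boundary reads averaged into the ratio, *Gramd1b* differed by 6.6 points at E18 and 8.3 at P1, and *Pde2a* by −7.8 at P1, all under that limit. The other differences called in a knockout stayed above it. The spread between animals is not known.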
